A study of Mus musculus with 35 samples.

Results

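The comparison described here was that of *Htt* ASO with control ASO in the striatum of wild-type mice. Its members were the 11 *Htt*+/+ mice given an ASO, chosen by their labels among the 35 mice of the series: 6 given *Htt* ASO (GS4, GT3, GW4, HA3, HA4 and HD3) and 5 given control ASO (GU4, GV3, HC3, HD4 and HI1). All were C57BL6/J females, 300 to 303 days old on *Htt* ASO and 300 to 302 days old on control ASO. Both ASOs had been injected into the peritoneum at 50 mg per kg every week, starting at 2 months and ending with sacrifice at 10 months of age. *Htt* ASO (labelled ASO1) targets the huntingtin transcript of either allele, and control ASO does not target it. A group of 6 *Htt*+/+ mice given saline, and the 6 *Htt* ASO and 6 control ASO mice that carried a CAG-expanded knock-in *Htt* allele (Q111/+), served for reference. Each library came from 1 mouse and 1 hemistriatum, the right one except for HD3, after perfusion with saline to clear blood. The number after the letter L in the sample titles was read as the sequencing lane, which the methods do not state.

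Antisense oligonucleotides of this kind pair with a transcript and direct its cleavage in the nucleus and cytoplasm, and after injection into the periphery they reach the liver far better than the brain. The question asked of the striatum was what peripheral silencing does there. Many of the genes that differed are known as targets of interferon. Type I interferons bind the receptor IFNAR1/IFNAR2, the kinases JAK1 and TYK2 pass the signal on, and a complex of transcription factors that includes IRF9 binds a short element in promoters, the interferon-stimulated response element (ISRE). The genes so induced encode antiviral effectors, sensors of foreign nucleic acid, MHC class I proteins that show peptides to T cells, and GTPases that act on the vacuoles of intracellular pathogens. Interferon gamma works mainly through another element, GAS, and induces many of the same genes.

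Depth was alike in the 3 +/+ groups, with total expected counts of 32200158 to 38484693 on *Htt* ASO, 33673361 to 36137645 on control ASO and 34353267 to 36266000 on saline. Levels are given as CPM, counts scaled to the library sizes with TMM factors. The tissue label was met: the 20 medium spiny neuron genes summed to between 13540 and 16050 CPM in every one of the 11 mice. A pair of control ASO mice stood apart. GU4 held choroid plexus transcripts (6 genes, summed to 1587 CPM against 43.3 to 112.4 in the other 10 mice), and GV3 was highest in endothelial genes (16 genes, 880.2 CPM against 589.5 to 723.7) and in red blood cell genes (3 genes, 426.5 CPM against 72.37 to 260.6). Counts of calls are also given without each of them.

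*Htt* transcript, listed under the older symbol *Hdh*, was not lower in the striatum beyond the spread between mice. On *Htt* ASO it was 66.64 CPM in the lowest mouse, 85.33 ± 13.01 CPM on average (SD, n = 6) and 104.2 CPM in the highest. On control ASO it was 100.6, 77.62, 84.65, 92.74 and 92.67 CPM in GU4, GV3, HC3, HD4 and HI1. The groups overlapped over nearly their whole range. Limma gave a log2 fold change of −0.08 ± 0.098 (SE; adjusted p = 0.992), and an exact two-sided permutation test over all splits of the 11 mice gave p = 0.511. Striatal *Htt* therefore could not check which ASO a mouse had received.

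Interferon-stimulated genes were higher on *Htt* ASO. Of 17639 genes tested with limma after voom, 52 (0.295%) had an adjusted p under 0.05, of which 48 (0.272% of genes tested) were higher and 4 (0.0227%) lower on *Htt* ASO. The 5 lists of interferon-related genes held 27 of the 48 higher calls and none of the lower ones. Every *Htt* ASO mouse lay above every control ASO mouse for 39 of the 48, and below for all 4 lower calls. Over all genes tested, 79 (0.448%) showed the former pattern and 41 (0.232%) the latter. In the 3 lanes that held both treatments, all 48 higher calls had a higher mean on *Htt* ASO in each lane, and all 4 lower calls a lower one. The calls were chosen by their difference in these same mice, so the lanes are not a separate test. Lane 4 set only GW4 against HD4, lane 6 set HA3 and HA4 against HI1 alone, and lane 5 set GT3 and HD3 against GV3 and HC3. GS4 (lane 3) and GU4 (lane 8) shared no lane with a +/+ mouse of the other ASO. The median log2 fold change of the 48 was 0.91, and of all genes tested −0.0022. Without HD4 of the control ASO group, the number of calls fell to 34, of which 32 were higher, and all 34 were among the 52. Besides *Angpt2*, *Cfb*, *Crb1* and *Unc13b*, the 20 calls lost without at least 1 of the 11 mice were *EG240327*, *Irgm*, *Usp18*, *Ifit1*, *Ifitm3*, *Slfn2*, *Cd93*, *Trim30*, *Serpinb6b*, *Parp14*, *Rtp4*, *Anxa3*, *Pltp*, *Oasl2*, *mKIAA0318* and *Emcn*, and the other 32 were kept.

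**Figure D1:**
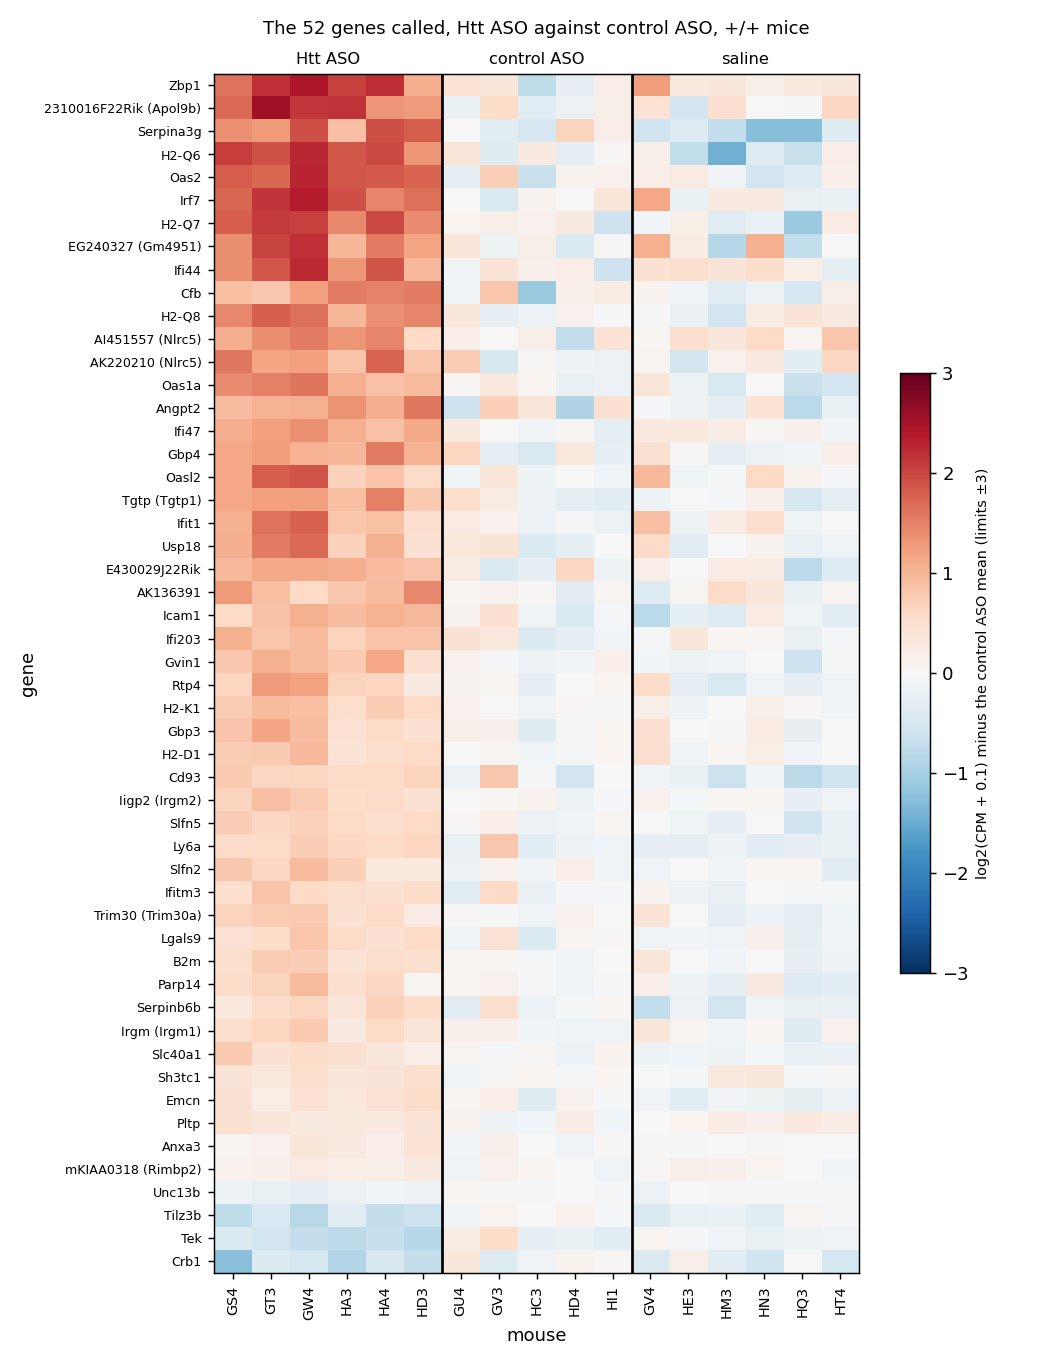
Each row is one of the 52 genes called and each column a +/+ mouse, with colour for log2(CPM + 0.1) minus the mean of the control ASO mice (red higher, blue lower, limits of ±3). The 6 *Htt* ASO columns are red over most of the 48 higher calls and faint where the change is small, as for *Anxa3* and *mKIAA0318*. The control ASO and saline columns are mostly pale, with GV3 and the saline mouse GV4 redder than their groups in some rows.

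Antiviral effectors made the largest group. Of 58 genes listed, 56 were in the table and 54 tested. Of these, 12 rose, none fell, and 52 had a positive log2 fold change, with a median of 0.42. Without GU4, 6 were called higher and none lower (median 0.45). Without GV3, 12 were called higher and none lower (median 0.44). *Oas2*, an oligoadenylate synthetase that senses viral RNA and activates RNase L, had the smallest adjusted p together with *H2-K1*. On *Htt* ASO it ranged from 5.288 to 7.748 CPM (median 5.63). On control ASO it was 1.243 CPM in GU4, 2.583 in GV3, 0.9149 in HC3, 1.646 in HD4 and 1.664 in HI1. No mouse of either group reached the other, and the means differed 3.84-fold (log2 fold change 1.94 ± 0.194 SE, adjusted p = 1.26e-07). Saline mice ranged from 0.9983 to 1.825 CPM, as low as the control ASO mice.

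Of the other 7 genes of this family tested, 2 were called. *Oas1a* rose from 0.992 ± 0.156 (SD, n = 5) to 2.51 ± 0.562 CPM (SD, n = 6), with a log2 fold change of 1.30 (adjusted p = 1.79e-04). *Oasl2*, an oligoadenylate synthetase-like gene, rose from 3.90 ± 0.643 to 9.39 ± 3.86 CPM (log2 fold change 1.18, adjusted p = 0.0422), and the *Htt* ASO mice were unequal, with 13.92 CPM in GT3 and 14.46 in GW4 against 5.76 to 8.811 in the other 4. *Oas1b*, *Oas1c*, *Oas1g*, *Oas3* and *Oasl1* had log2 fold changes of −0.14 (*Oas1c*) to 1.65 (*Oas1g*) and adjusted p-values of 0.188 to 0.999. *Ifit1*, which binds viral RNA caps, followed the same order: GT3 had 9.381 and GW4 10.25 CPM, the other *Htt* ASO mice 4.256 to 6.302, and the control ASO mice 2.611 to 3.53 (log2 fold change 1.13, adjusted p = 0.0143). *Usp18*, the protease that removes ISG15 and restrains the receptor, likewise ranged from 1.966 to 4.791 CPM, against 1.038 to 1.922 CPM in control ASO mice (log2 fold change 1.13). GW4 was the highest of the *Htt* ASO mice in 21 of the 48 higher calls and GT3 in 10. HD3, the left hemistriatum, was the lowest in 18 and HA3 in 11. The calls of *Oasl2*, *Ifit1* and *Usp18* were lost without HC3 or HD4 of the control ASO group, *Ifit1* and *Oasl2* also without HI1, and *Oasl2* also without GU4, GS4, GT3 or GW4.

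The remaining antiviral calls were *Ifi44* (log2 fold change 1.76), *Rtp4* (0.81), *Slfn5* (0.63), *Slfn2* (0.62), *Ifitm3* (0.59), *Trim30* (0.59) and *Parp14* (0.56). *Ifitm3*, which hinders the entry of viruses at membranes, was at 10.98 to 14.52 CPM on *Htt* ASO and at 6.42 to 7.785 CPM in 4 control mice, whereas GV3 had 12.17 CPM and overlapped; without GV3 its log2 fold change was 0.74 (adjusted p = 4.38e-04). *Slfn5*, of the Schlafen family, did not overlap (14.59 to 16.97 CPM against 8.819 to 11.47). Canonical members did not all pass the test. *Isg15*, the ubiquitin-like modifier, averaged 2.01 ± 0.817 CPM, against 0.891 ± 0.231 CPM in control ASO mice (adjusted p = 0.236). *Mx1* and *Mx2* had log2 fold changes of 0.89 and 0.42, with adjusted p-values of 0.937. They averaged only 0.38 and 1.26 CPM over the 11 mice. *Rsad2*, viperin, ranged from 3.61 to 6.92 CPM against 2.249 to 3.048 CPM in 4 control mice and 4.506 CPM in GV3, and was not called with all mice, but was called without GV3 (log2 fold change 0.76, adjusted p = 0.0108), without HA3 and without HD3.

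**Figure D2:**
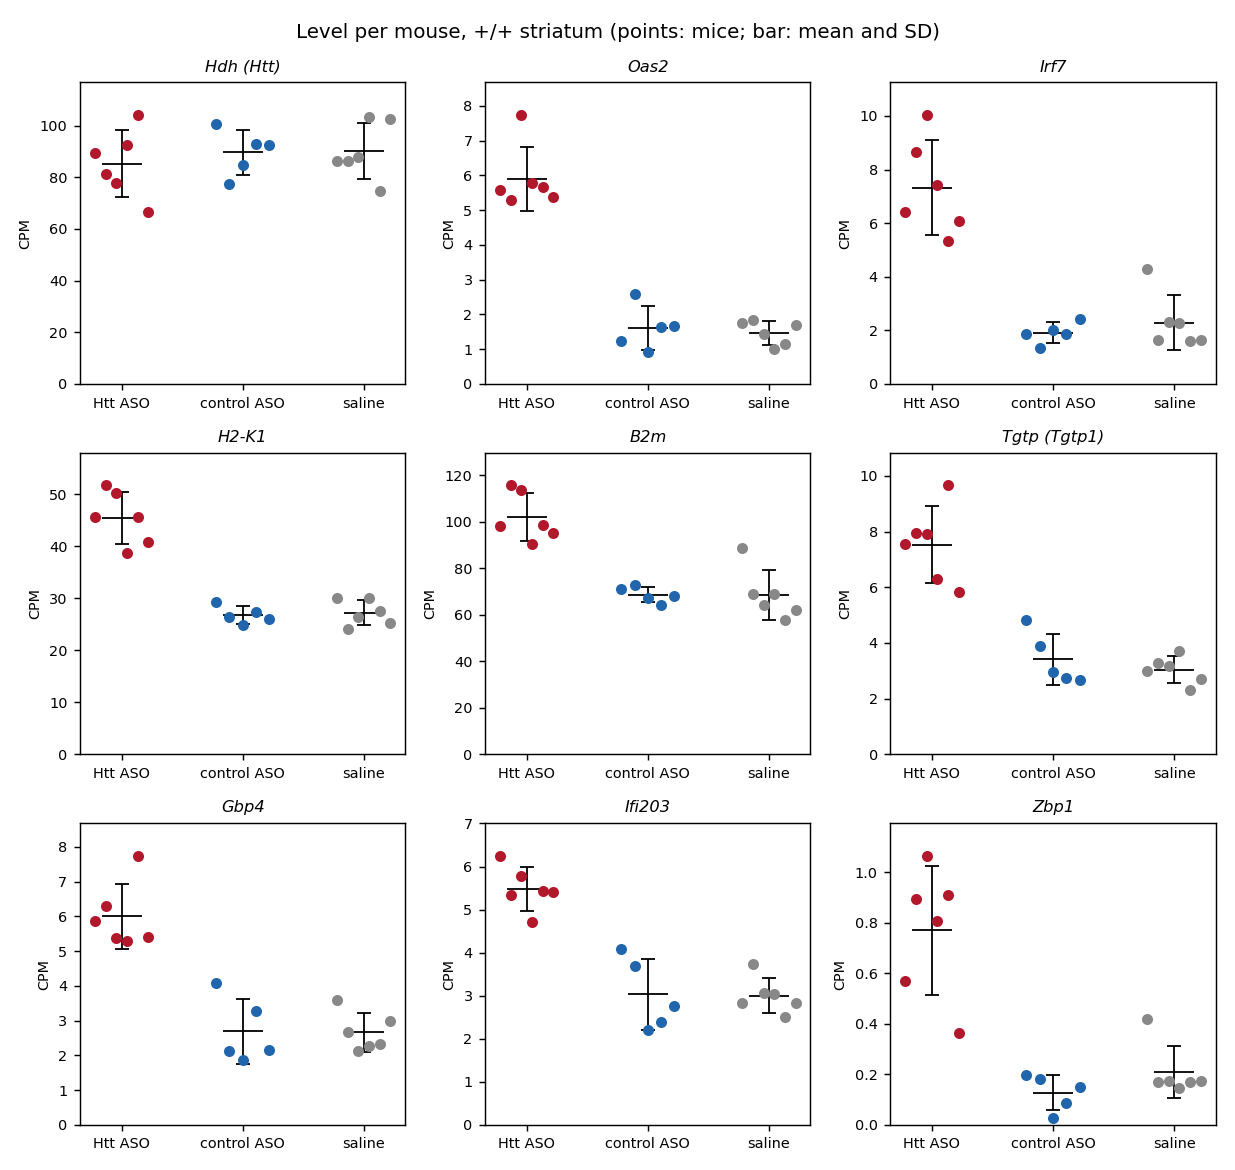
Each panel shows CPM (linear axis from 0) of one gene per +/+ mouse on *Htt* ASO (red, n = 6), control ASO (blue, n = 5) and saline (grey, n = 6), with the mean and SD as a bar. *Htt* (*Hdh*) overlaps among groups, and in the other 8 panels all *Htt* ASO mice lie above all control ASO mice.

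Interferon-inducible GTPases rose as well. Of 20 listed, 15 were in the table and 13 tested; 6 rose, none fell, and all 13 log2 fold changes were positive (median 0.54). *Tgtp* (current symbol *Tgtp1*), of the immunity-related GTPases, was at 5.827 to 9.669 CPM on *Htt* ASO (median 7.75) and at 4.808, 3.881, 2.967, 2.73 and 2.657 CPM in GU4, GV3, HC3, HD4 and HI1 (log2 fold change 1.16 ± 0.130 SE, adjusted p = 1.32e-06), again without overlap. *Gvin1*, a very large GTPase, rose 1.84-fold, from 19.4 ± 1.85 to 35.9 ± 5.63 CPM (log2 fold change 0.88). *Gbp4* and *Gbp3*, guanylate-binding proteins, had log2 fold changes of 1.20 and 0.74, and *Iigp2* (*Irgm2*) and *Irgm* (*Irgm1*), regulators of the family, 0.66 and 0.53. *Ifi47*, a further GTPase outside the list, ranged from 1.553 to 2.248 CPM against 0.6537 to 1.005 CPM (log2 fold change 1.20, adjusted p = 2.48e-04). Reads of *Tgtp1* and its near-identical neighbour, and of the guanylate-binding proteins, may be divided among copies, so which copy rose is uncertain.

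Some MHC class I genes rose, and no MHC class II gene was called. Of 26 class I and antigen processing genes tested, 6 rose and none fell (median log2 fold change 0.23). *H2-K1*, a classical class I heavy chain, was at 45.6, 51.78, 50.18, 38.82, 45.73 and 40.84 CPM on *Htt* ASO and at 29.31, 26.39, 24.85, 27.44 and 26.13 CPM on control ASO. The groups were far apart for the spread within them (log2 fold change 0.76 ± 0.074 SE, adjusted p = 1.26e-07). The saline mice lay at 24.12 to 30.1 CPM. *H2-D1*, the other classical heavy chain, had a log2 fold change of 0.68, and *B2m*, the light chain that all class I proteins share, of 0.57, from 68.6 ± 3.33 to 102 ± 10.3 CPM. *H2-Q6*, *H2-Q7* and *H2-Q8*, nonclassical heavy chains, started lower and changed more (log2 fold changes 1.98, 1.89 and 1.53), though their sequences are close enough that reads may be shared among them. The transactivator of class I genes, *Nlrc5*, has 2 entries under older names (*AI451557* and *AK220210*), which both rose (1.41 and 1.39). *Tap1*, the peptide transporter, and *Psmb8*, an immunoproteasome subunit, had log2 fold changes of 0.58 and 0.51 and adjusted p-values of 0.118 and 0.188. None of 10 class II genes was called, with a median of 0.11 and 7 positive values. *H2-Aa*, *H2-Ab1* and *H2-Eb1* had log2 fold changes of 0.31, 0.56 and 0.48. They averaged only 0.65, 0.56 and 0.61 CPM over the 11 mice, so the test could show little for them. In Q111/+ mice the median was 0.29 for the class II list and 0.20 for the class I list. A difference between the classes was thus not shown.

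Of the signalling components of the pathway, 27 receptors, kinases, transcription factors and regulators were tested and 1 was called, and the median was 0.0093. That gene was *Irf7*, the transcription factor that amplifies interferon production and is itself interferon-induced. On *Htt* ASO it ranged from 5.329 to 10.05 CPM (median 6.91). On control ASO it was at 1.87, 1.352, 2.018, 1.873 and 2.436 CPM in GU4, GV3, HC3, HD4 and HI1. The lowest *Htt* ASO mouse was far above the highest control mouse (log2 fold change 1.92 ± 0.224 SE, adjusted p = 2.28e-06). *Stat2* and *Irf9* (*Isgf3g*) had log2 fold changes of 0.14 and 0.23, and the receptor chains *Ifnar1* and *Ifnar2* of 0.0055 and −0.019, with adjusted p-values of 0.688 to 0.999. Of 20 interferon genes listed, 3 were in the table, *Ifnab*, *Ifne1* and *Ifng*, with at most 1 count in any mouse, which is too low to test. The other 17 were not analysed here.

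Sensors of nucleic acid were called for 2 of 23 genes tested. *Zbp1*, a sensor of Z-form nucleic acid that can start necroptosis, had the largest log2 fold change of the 52 (2.59 ± 0.403 SE, adjusted p = 2.85e-04) at a low level, 0.3652 to 1.065 CPM in *Htt* ASO mice against 0.02883 to 0.1954 CPM in control ASO mice. *Ifi203*, of the AIM2-like receptor family, was at 4.718 to 6.253 CPM against 4.09, 3.693, 2.211, 2.398 and 2.764 CPM (log2 fold change 0.88, adjusted p = 1.13e-05). The RNA sensors *Ddx58* and *Ifih1* had log2 fold changes of 0.40 and 0.36 and adjusted p-values of 0.127 and 0.274. *Tlr9*, *Tlr7* and *Tlr3*, the endosomal receptors for DNA and RNA, had log2 fold changes of 0.065, −0.0011 and 0.12, none called.

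**Figure D3:**
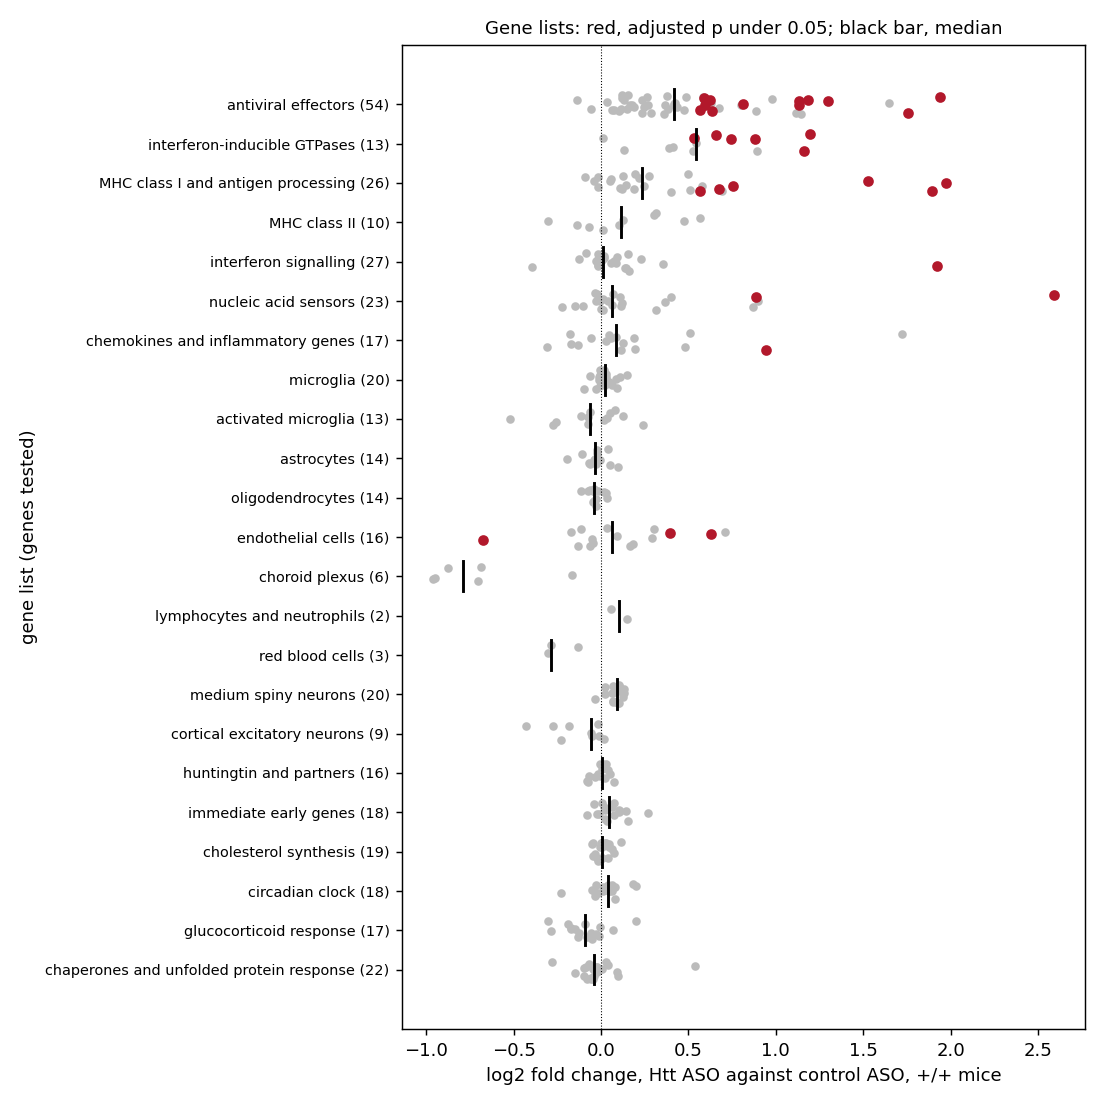
Each point is a tested gene placed by its log2 fold change, *Htt* ASO against control ASO in +/+ mice (horizontal axis), in its gene list (vertical axis, with the number tested); red points have an adjusted p under 0.05 and black bars mark medians. The antiviral effectors, GTPases and MHC class I genes lie to the right, with medians of 0.42, 0.54 and 0.23, and the glial and neuronal lists lie near 0.

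The sequence before the start of the called genes was read for the ISRE, because many of the genes moved together. In RefSeq promoters (build GRCm38.p6), 29 of the 47 genes behind the 48 higher calls had an entry, matched by symbol. The ISRE core was searched on both strands as GAAANNGAAA in the 250 bases before the start. It stood in 12 of the 29 (41.4%), against 936 of 27025 genes in the promoter table (3.46%). The GAS core, TTCNNNGAA, whose letters read the same on both strands, stood in 5 of 29 (17.2%) against 8.13% of all. A match is a string of letters, not a measured site. The sequences shown are 8 examples from the class I, GTPase, sensor and antiviral genes described above, chosen after the matches were seen, 5′ to 3′ on the strand of the gene, with the core in capitals (TTTCNNTTTC is the core on the opposite strand).
*Tgtp1*, chr11:48992309-48992338, minus strand: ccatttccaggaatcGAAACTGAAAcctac
*Irgm2*, chr11:58214898-58214927, plus strand: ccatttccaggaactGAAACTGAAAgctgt
*B2m*, chr2:122147533-122147562, plus strand: actttataagaacatGAAACTGAAAatggg
*Ifi203*, chr1:173942513-173942542, minus strand: attttaagagctgggGAAATCGAAAgctat
*Irgm1*, chr11:48871436-48871465, minus strand: actagcctgtttcaaGAAATAGAAAccgaa
*Oas1a*, chr5:120907531-120907560, minus strand: ccctgcccttctcggGAAATGGAAActgaa
*Gbp3*, chr3:142559984-142560013, plus strand: catgtcaggacacagTTTCAGTTTCtattt
*Ifit1*, chr19:34640789-34640818, plus strand: actttccagtctcagTTTCAGTTTCtcact
The core began 77 bases before the start in *Tgtp1*, 64 in *Irgm2*, 139 in *B2m* and 20 in *Oas1a*. In *Tgtp1* and *Irgm2* a GAS core (ttccaggaa) lay just before it. Of the 4 genes called lower, 3 had a promoter entry, the ISRE core was in none of these windows, and the GAS core was in 1 (*Crb1*, 33.3%).

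Genes of the vessel wall changed in both directions. They were chosen after their values were seen, apart from the endothelial list, and bulk tissue cannot tell fewer cells of a type from less RNA per cell. *Tek*, the TIE2 receptor of endothelial cells, was lower on *Htt* ASO, at 9.186 to 12.46 CPM (median 10.2) against 19.37, 24.54, 14.13, 14.42 and 13.37 CPM in GU4, GV3, HC3, HD4 and HI1. No mouse overlapped (log2 fold change −0.67 ± 0.110 SE, adjusted p = 5.85e-04). *Angpt2*, the ligand that can oppose TIE2 signalling, was higher, at 3.772 to 6.04 CPM against 1.228, 3.274, 2.537, 0.9932 and 2.704 CPM (log2 fold change 1.23, adjusted p = 0.00611). The other ligand, *Angpt1*, and the co-receptor *Tie1* had log2 fold changes of −0.037 and 0.21 and adjusted p-values of 0.999 and 0.765. The *Angpt2* call was lost without GU4 or HD4 and with only the lanes that held both treatments, and the calls of *Tek* (adjusted p = 0.199) and *Angpt2* were lost when only the 2 groups compared were fitted. In the saline group *Tek* was at 14.21 to 17.73 CPM and *Angpt2* at 1.065 to 2.613 CPM, on the side of control ASO in both.

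*Icam1*, an adhesion protein for leukocytes, did not overlap either (4.373 to 6.039 CPM against 2.093 to 3.976; log2 fold change 0.94, adjusted p = 6.03e-04). *Slc40a1*, the iron exporter ferroportin, had 13.71 to 20.41 CPM against 10.67 to 12.72 (log2 fold change 0.46). *Ly6a*, also an interferon-inducible gene, had 45.51 to 50.96 CPM on *Htt* ASO and 24.21 to 28.71 CPM in 4 control mice, but 54.25 CPM in GV3. *Cd93*, a surface glycoprotein of endothelium, showed the same split, with 18.51 to 21.4 CPM on *Htt* ASO, 8.315 to 12.39 CPM in 4 control mice and 21.59 CPM in GV3. Their log2 fold changes were 0.63 and 0.66 with GV3, and 0.83 and 0.86 without it (adjusted p = 2.91e-10 and 7.47e-05). *Emcn*, endomucin, had the largest adjusted p of the 52 calls (log2 fold change 0.40, adjusted p = 0.044).

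Without GV3, 73 genes were called, 68 of them higher, and 48 of the 52 were among them. Of the 25 genes gained, 3 belonged to the endothelial list: *Ly6c1* (log2 fold change 0.31, adjusted p = 0.132 with GV3, and 0.43, 3.16e-05 without), *Vwf* (0.18 and 0.51) and *Pecam1* (0.092 and 0.22). *Cd34* (0.28 and 0.37), *Egfl7* (0.26 and 0.31) and *Robo4* (0.25 and 0.31), also gained, were named after their values were seen. The endothelial genes *Flt1* (−0.016), *Kdr* (0.11) and *Cldn5* (0.47, adjusted p = 0.280) were not called without GV3. The 4 calls lost were *Trim30* (adjusted p = 0.0538), *Rtp4* (0.0569), *Unc13b* (0.0693) and *Pltp* (0.132). In the endothelial list of 16 genes, 2 rose and 1 fell with GV3, and 5 rose and 1 fell without it, the one that fell being *Tek* both times. The list's median log2 fold change was 0.064 and 0.16. *Tek* itself moved to −0.54 without GV3 (adjusted p = 0.00114) and *Angpt2* to 1.42. The part of the endothelial and red blood cell transcripts of GV3 in these values was not tested otherwise.

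**Figure D4:**
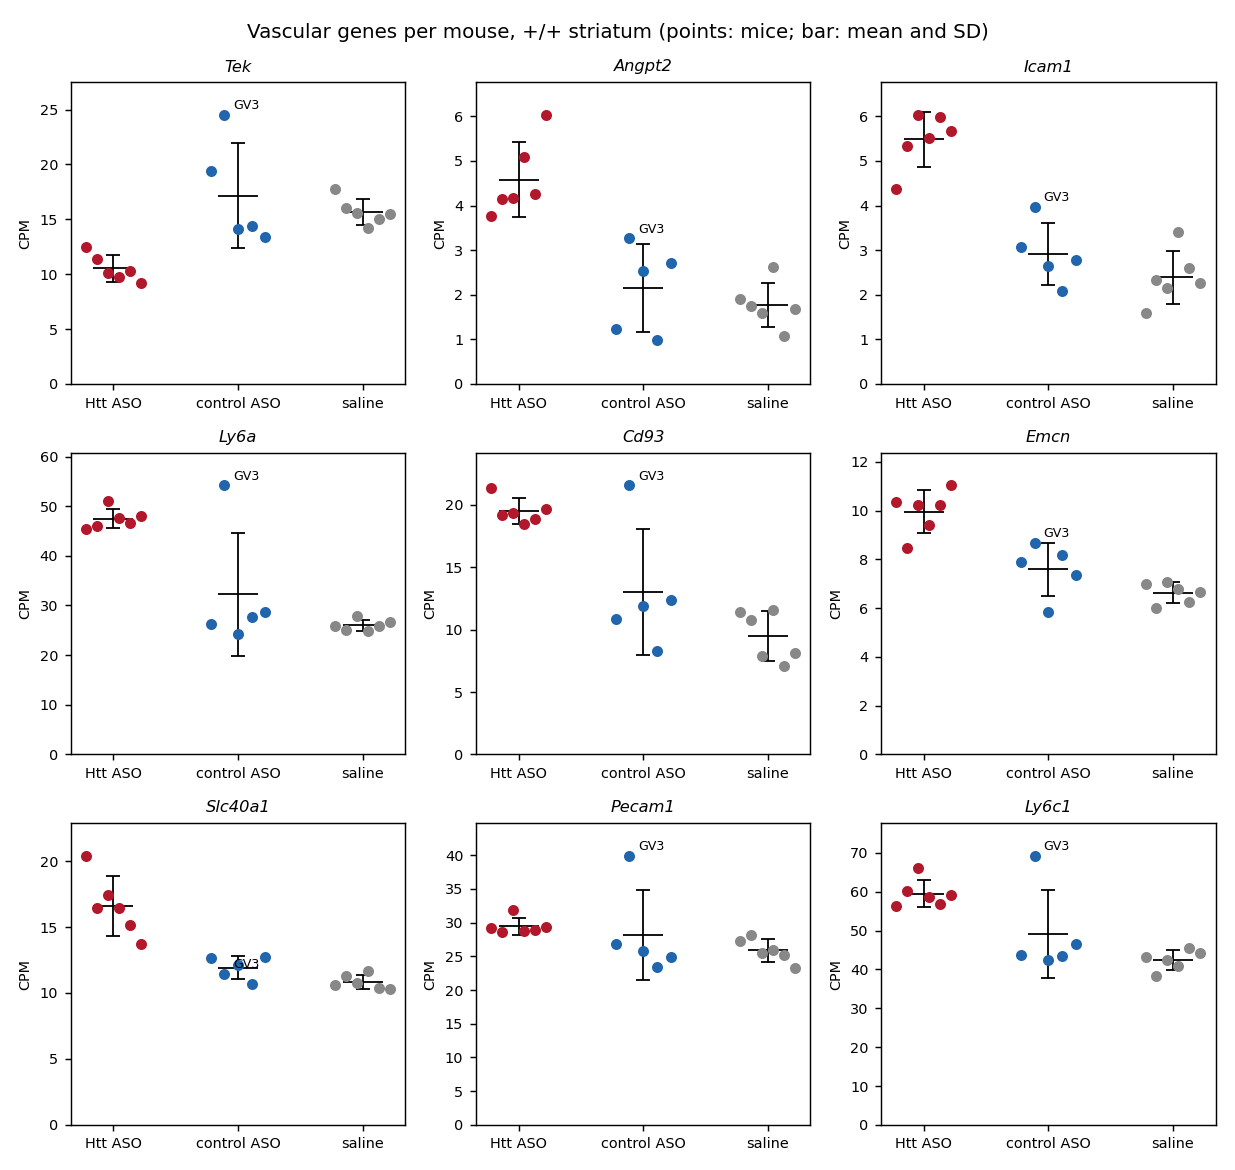
Each panel shows CPM (linear axis from 0) of one vascular gene per +/+ mouse on *Htt* ASO (red), control ASO (blue) and saline (grey), with mean and SD as a bar; the control ASO mouse GV3 is named. GV3 is the highest control mouse in 8 of the 9 panels, *Tek* is lower and *Angpt2* and *Icam1* are higher in every *Htt* ASO mouse.

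The other calls were varied. *Lgals9*, galectin 9, ranged from 6.149 to 8.221 CPM against 3.402 to 6.128 (log2 fold change 0.59). *Serpina3g*, a protease inhibitor, and *Cfb*, complement factor B, rose at levels under 1 CPM in every one of the 11 mice (log2 fold changes 2.02 and 1.597). *2310016F22Rik* (*Apol9b*), an apolipoprotein L gene, was at 0.5619 to 1.5 CPM against 0.1153 to 0.3004 CPM (2.30). *Pltp*, the phospholipid transfer protein, rose from 76.1 ± 8.57 to 96.0 ± 4.53 CPM (0.34); the saline mice lay at 74.92 to 92.49 CPM, and *Htt* ASO against saline had an adjusted p of 0.367. *mKIAA0318* (*Rimbp2*), a presynaptic scaffold, had a log2 fold change of 0.19. Besides *Tek*, the lower calls were *Tilz3b* (2.678 to 3.886 CPM against 4.552 to 5.184; −0.63), *Unc13b*, a synaptic vesicle priming gene (18.51 to 21.21 CPM against 21.51 to 23.84; −0.17), and *Crb1*, a cell polarity gene (0.412 to 0.8156 CPM against 0.8411 to 1.451; −0.78).

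Markers of glia and neurons were not called. None of 20 microglial genes was called (median log2 fold change 0.020), with *Cx3cr1* at 0.021, *P2ry12* at 0.029, *Csf1r* at −0.011 and *Aif1* at 0.11. Their summed levels were 761.6 to 880.7 CPM, against 762.9 to 879.9 CPM in control ASO mice. None of 13 genes of activated microglia (median −0.061), 14 of astrocytes (−0.033), 14 of oligodendrocytes (−0.040) and 9 of cortical neurons (−0.059) was called. Of 17 lymphocyte and neutrophil genes in the table, 15 were too low to test, with at most 13 counts in any mouse, and those tested were *Cd4* (log2 fold change 0.15) and *Lck* (0.058). *Cd4* averaged 110 CPM over the 11 mice, whereas *Cd3e*, *Cd3d* and *Cd3g* had at most 4 counts in any mouse. *Cd4* could therefore not stand for lymphocytes here. The 6 choroid plexus genes had a median of −0.79 with no call, and GU4 alone held them at a high level. Without GU4 their median was −0.074, and 39 genes were called, of which 37 were among the 52. The 20 medium spiny neuron genes had a median of 0.090 with no call, but 19 log2 fold changes were positive. In Q111/+ mice their median was −0.019. *Drd1a* (*Drd1*) was at 312 ± 14.3 against 307 ± 19.1 CPM and *Ppp1r1b* at 1715 ± 78.3 against 1571 ± 157 CPM. The lists of immediate early, cholesterol synthesis, clock, glucocorticoid-responsive and chaperone genes gave no call either. The glucocorticoid-responsive genes nevertheless leaned lower on *Htt* ASO, with 2 of 17 log2 fold changes positive. Their median was −0.094 in +/+ and −0.29 in Q111/+ mice. *Sgk* (*Sgk1*) was at −0.30 in +/+ mice (adjusted p = 0.183 with limma). The lower call *Tilz3b* was not matched to a current symbol and was in none of the lists.

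Among inflammatory genes outside the interferon lists, *Icam1* was the only one of 17 called. *Cxcl10*, a chemokine typical of interferon responses, averaged 0.296 ± 0.230 CPM, against 0.334 ± 0.285 CPM in control ASO mice (adjusted p = 0.999), and 12 further listed genes were too low to test. *Vcam1*, another adhesion protein, had a log2 fold change of 0.13 (adjusted p = 0.949).

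The saline mice give the level of these genes without an ASO. Control ASO against saline gave 0 calls (0% of genes) with limma and 4 calls with DESeq2. In limma 2080 genes had an unadjusted p under 0.05, more than the 916 of the main comparison, so the 2 groups were not shown to be equal. The 3 red blood cell genes had a median log2 fold change of 1.2 for control ASO and 0.91 for *Htt* ASO against saline. *Htt* ASO against saline gave 128 calls (0.726%), 117 of them higher on *Htt* ASO. The comparisons share mice with the main one, so the values stand side by side only. All 48 higher calls had a mean on *Htt* ASO above the saline mean, and 33 had every *Htt* ASO mouse above every saline mouse. For *Oas2* the log2 fold change was 2.01 against saline and 1.94 against control ASO, and for *H2-K1* 0.74 and 0.76. The saline mouse GV4 was the highest of its group in 18 of the 48, at 4.291 CPM of *Irf7* (others 1.598 to 2.295), 5.615 of *Ifit1* (2.636 to 4.273) and 88.73 of *B2m* (57.84 to 69.06).

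The Q111/+ mice, which share no sample with the +/+ mice, had many of the same calls. There *Htt* ASO against control ASO gave 63 calls (0.357%), and 32 genes were called in both genotypes, 61.5% of the +/+ calls and 50.8% of the Q111/+ calls, each in the same direction. Both comparisons came from the same fit and shared each gene's estimate of the spread, so their calls are not fully separate. Of the 52, 50 had the same sign in Q111/+ mice, the exceptions being *Crb1* (−0.78 and 0.052) and *mKIAA0318* (0.19 and −0.016). *Oas2* had log2 fold changes of 1.94 in +/+ and 1.89 in Q111/+ mice, *H2-Q7* of 1.89 and 1.91, *Irf7* of 1.92 and 1.55, *Angpt2* of 1.23 and 1.29, and *Tek* of −0.67 and −0.46 (adjusted p = 0.0614 in Q111/+). The interaction of genotype with treatment gave 0 calls (0%) with limma, edgeR and DESeq2, with 713 genes at an unadjusted p under 0.05 in limma. Among the 52, the smallest adjusted p of the interaction was 0.9995, and 3 had an unadjusted p under 0.05. A difference in response between the genotypes was thus not shown for any gene.

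**Figure D5:**
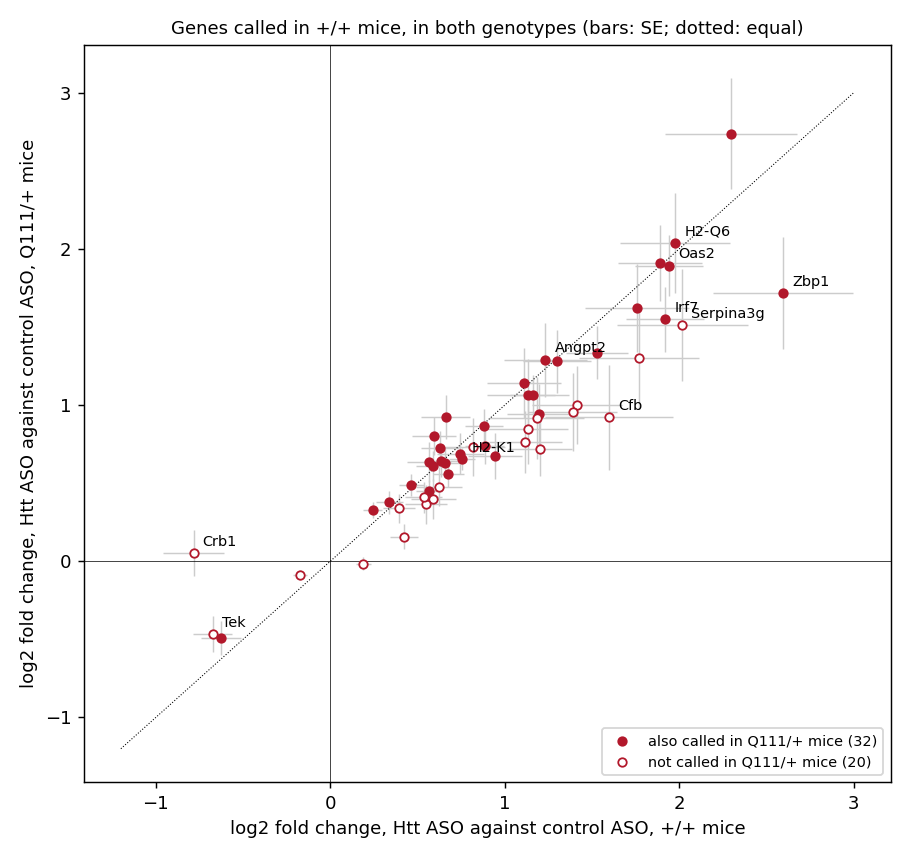
Each point is one of the 52 genes called in +/+ mice, with its log2 fold change, *Htt* ASO against control ASO, in +/+ mice (horizontal axis) and Q111/+ mice (vertical axis); bars are standard errors and the dotted line marks equal values. Filled points (32) were also called in Q111/+ mice, open points (20) were not, and 50 of the 52 have the same sign in both.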

How the data were processed

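Per the labels and the methods, the authors sequenced stranded mRNA libraries, aligned reads to the mouse transcriptome (MGSCv37, mm9) with Bowtie 0.12.9 and quantified genes with RSEM 1.1.18. They deposited expected counts, estimated by RSEM for each gene in each mouse and not scaled, and 55.6% of the values were whole. RSEM divides reads among near-identical transcripts by estimate. Mice were grouped by label, and total counts ranged from 32200158 to 38484693 in the 11 mice. In R 4.3.3, edgeR 4.0.16 kept 17639 of 22099 genes (filterByExpr, minimum count 10, minimum total 15), TMM scaled the libraries, and voom with limma 3.58.1 fitted a mean for each of 6 groups over 35 mice (29 residual degrees of freedom). P-values were adjusted by Benjamini-Hochberg over all genes tested, and calls are at 0.05. CPM used TMM-scaled totals.

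The comparison, its gene lists and vascular genes were chosen with earlier results of these data known. By rule the text named *Htt*, the lower calls, the 20 smallest adjusted p, the 5 largest increases, and each list's calls or, with under 2 calls, its highest members; further genes were named after their values were seen. Older symbols were matched to current ones by RefSeq synonyms: 13479 entries matched directly, 3807 through a synonym, and 4813 were not matched. No library was a duplicate (25 pairs of mice within a group, chi-square per degree of freedom 3.49 to 15.4). Alternatives were edgeR and DESeq2 1.42.0 on rounded expected counts, other scaling and filters, lane, sample weights, robust fits, fewer samples, and, after seeing the data, GC correction. The fits were tested on simulated data.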

Additional observations from a re-analysis of the deposited data

Results flagged for a closer look

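Single mice stood far from the rest of their group in 7 of 106 groups of values examined (the 52 calls and *Htt*, in each ASO group), by Dixon's 95% criterion for the gap to the nearest mouse. Chance gives about 1 in 20 such groups. On *Htt* ASO, GW4 was highest for *Oas2* (7.748 CPM, others 5.288 to 5.792) and *Lgals9* (8.221 CPM, others 6.149 to 6.911), and GT3 for *Ifitm3* (14.52 CPM, others 10.98 to 12.27). On control ASO, GV3 was highest for *Ly6a* (54.25 CPM, others 24.21 to 28.71), *Ifitm3* (12.17 CPM, others 6.42 to 7.785) and *Oasl2* (5.016 CPM, others 3.46 to 3.831). HD4 of the control ASO group was lowest for *AK136391* (0.3658 CPM, others 0.4884 to 0.5266).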

How the results depend on the processing

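No gene called turned direction in any of 24 alternative fits, and 22 of the 52 calls held in every fit that tested the gene, *H2-K1*, *Oas2*, *Tgtp*, *Irf7* and *B2m* among them. Fitting only the groups compared called 27 genes and lost 27 of the 52, *Tek*, *Angpt2* and *Ly6a* among them, and using only the lanes that held both treatments called 34; both use fewer mice. Leaving out each mouse in turn gave 34 (without HD4) to 73 (without GV3) calls, and 32 of the 52 were kept without each mouse. The *Htt* log2 fold change ranged from −0.14 to −0.012 over these fits. DESeq2 called 98 genes in Q111/+ mice and 4 for control ASO against saline, and only the lanes with both treatments gave 73 for *Htt* ASO against saline; the cause was not tested. edgeR called 46 and DESeq2 77 in the main comparison. GC content was known for 14722 tested genes (83.5%), and correcting for it gave 53 calls against 51 without, 48 in both. No paired analysis was possible because the replicate numbers only name mice in accession order. With 5 or 6 mice a group, changes at levels under 1 CPM (9 of the 52 calls) rest on few counts.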
